A study of Mus musculus with 4 samples.

Results

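The 9 genes described here, Nqo1, Gclm, Gclc, Txnrd1, Srxn1, Slc7a11, Prdx1, Mt1 and Mt2, answer oxidative or metal stress in most mammalian tissues. They were taken as a list of gene symbols from the 21885 genes of the count tables, and all 9 were present. Spatial transcriptomics (10x Genomics Visium) had been performed on 4 frozen mouse hearts, 1 section per heart: 1 control, 1 at 3 days post-infarction (3 dpi) and 2 at 5 dpi. On these arrays a spot of about the size of several cells captures polyadenylated RNA, so a value is that of a small region and not of a cell. All mice carried the Collagen1a1-GFP transgene, in which fibroblast GFP is driven by a collagen promoter, the control included, and were 8 to 12 weeks old. Per the study's methods, infarction was induced by permanent ligation of the left anterior descending coronary artery. The control, the 3 dpi heart and 1 of the 5 dpi hearts were labelled female and the other 5 dpi heart male.

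The sex labels of the 5 dpi hearts did not go with their RNA: the section labelled female held 704 UMIs (unique molecular identifiers, 1 per captured transcript) of 4 Y-linked genes and the section labelled male 1. Both are therefore called by their labels, and no comparison between the sexes was made. Kept spots numbered from 1146 in the control to 1741 at 3 dpi, with 3742105 to 9540940 UMIs outside mitochondrially encoded genes per section. Of the 3198 array positions used, 184 were shared by all 4 sections, since positions are fixed on the array. The labelled tissue was borne out by its defining markers: 12 cardiomyocyte genes summed to 101295 CPM in the control and none was at 0 in any section. CPM here is UMIs per 1000000 UMIs outside mitochondrially encoded genes, whose share fell from 40.1% of all UMIs in the control to between 13.3% and 21.4% in the infarcted sections. Intervals are exact Poisson 95% intervals and cover counting error only. In a spot or zone, fewer cells of a type and less RNA per cell cannot be told apart.

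The genes fall into several branches of one defence system. The transcription factor NRF2 (gene Nfe2l2) is held by KEAP1 in unstressed cells and released when KEAP1 is oxidised, after which it binds antioxidant response elements upstream of its targets. Those targets supply glutathione (Slc7a11 imports cystine, Gclc and Gclm are the catalytic and modifier subunits of glutamate-cysteine ligase), keep the thioredoxin system reduced (Txnrd1 is the cytosolic thioredoxin reductase, Prdx1 a peroxide-reducing peroxiredoxin and Srxn1 the sulfiredoxin that repairs overoxidised peroxiredoxins) and detoxify quinones (Nqo1). Mt1 and Mt2 encode metallothioneins, small cysteine-rich proteins that bind zinc and copper and are induced through the factor MTF1 at metal response elements, and also by glucocorticoids and cytokines.

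The sequence just upstream of the genes was searched for letters that match such elements, and 5 windows are printed. They are those of Nqo1, which fell in the infarct, Prdx1 and Srxn1, which were higher there, and the neighbouring metallothionein genes, which differed from each other. These genes were picked by their levels, so no link between letters and levels can be read from the windows. Each window is the 250 bases before the RefSeq transcript start, on the gene's strand, in build GRCm38.p6. Capitals mark matches on either strand to the antioxidant response element core TGACNNNGC, its variant TGAGTCAGC, or the metal response element core TGCACNC or TGCGCNC. The Nqo1 window is chr8:107403206-107403455 on the minus strand. On the plus strand lie those of Prdx1 at chr4:116685349-116685598, Srxn1 at chr2:152105274-152105523, Mt1 at chr8:94178839-94179088 and Mt2 at chr8:94172368-94172617.
Nqo1: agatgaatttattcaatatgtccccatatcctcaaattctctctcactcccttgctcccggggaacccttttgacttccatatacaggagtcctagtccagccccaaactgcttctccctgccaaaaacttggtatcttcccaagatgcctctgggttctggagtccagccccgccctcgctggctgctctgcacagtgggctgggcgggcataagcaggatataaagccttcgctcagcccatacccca
Prdx1: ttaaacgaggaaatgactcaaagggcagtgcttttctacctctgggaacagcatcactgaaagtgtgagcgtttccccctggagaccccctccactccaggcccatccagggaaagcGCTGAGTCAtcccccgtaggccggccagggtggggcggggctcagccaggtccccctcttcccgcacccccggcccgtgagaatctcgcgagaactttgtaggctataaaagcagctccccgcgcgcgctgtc
Srxn1: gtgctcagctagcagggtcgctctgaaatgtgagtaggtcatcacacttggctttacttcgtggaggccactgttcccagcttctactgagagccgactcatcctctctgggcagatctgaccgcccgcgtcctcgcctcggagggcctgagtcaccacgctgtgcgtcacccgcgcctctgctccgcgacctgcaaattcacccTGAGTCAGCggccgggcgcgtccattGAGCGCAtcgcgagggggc
Mt1: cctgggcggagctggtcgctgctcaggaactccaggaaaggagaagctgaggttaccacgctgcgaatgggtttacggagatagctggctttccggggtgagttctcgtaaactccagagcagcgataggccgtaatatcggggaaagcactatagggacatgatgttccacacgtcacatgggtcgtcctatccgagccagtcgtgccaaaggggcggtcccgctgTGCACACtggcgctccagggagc
Mt2: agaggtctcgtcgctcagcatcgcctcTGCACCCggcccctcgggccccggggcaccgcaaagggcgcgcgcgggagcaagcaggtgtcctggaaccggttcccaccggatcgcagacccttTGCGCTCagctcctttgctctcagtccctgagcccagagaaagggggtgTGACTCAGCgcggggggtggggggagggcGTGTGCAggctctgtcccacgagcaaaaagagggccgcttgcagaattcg

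Windows were found for 8 of the 9 genes, and Gclc is named only. The antioxidant response element core was present in the windows of Gclm, Prdx1 and Mt2 and in 1 of the 3 windows of Txnrd1, against 10.2% of all 32851 windows. Its variant was present in Srxn1 (0.347% of all windows), beginning 45 bases before the transcript start. The metal response element core matched at 3 places in Mt2, at 223, 128 and 50 bases before the start, and at 1 place in Mt1, at 23 bases. It also matched at 2 places in Gclm and 1 in Srxn1, against at least 1 match in 21.4% of all windows. The AP-1 element, TGAGTCA or TGACTCA, which is part of some antioxidant response elements, occurred in Srxn1 and Prdx1 at 2 places each and in Mt2 at 1 (4.46% of all windows). In Mt2 it lay inside the antioxidant response element match, as did 1 of those of Srxn1 and 1 of those of Prdx1. The windows of Nqo1, lower in the infarct, and of Slc7a11, sparse but higher there, held none of these letters. A match is a description of the letters in this window and no evidence of binding. Bases further upstream or past the RefSeq start were not searched. Few or no matches here therefore do not mean that a gene lacks such elements.

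To see what infarction did to the genes at the scale of the heart, whole sections were first set side by side, in the order control, 3 dpi, 5 dpi labelled female, 5 dpi labelled male. There was 1 control heart, so these values carry no test. The genes parted at once: most were higher after infarction, the metallothionein Mt2 among them, while Nqo1 was lower. Txnrd1 stood at 26.7, 83.3, 83.0 and 72.3 CPM, Srxn1 at 11.5, 38.1, 42.9 and 30.3 CPM, and Gclm at 14.4, 39.5, 45.6 and 31.4 CPM. In all 3 genes each infarcted section exceeded the control, by 2.18-fold to 3.73-fold. Prdx1, the most abundant of the NRF2 targets by UMI count, was at 582, 867, 1024 and 998.6 CPM, at most 1.76-fold above the control. Gclc was at 4.54, 8.72, 8.70 and 5.77 CPM, and the control's interval (2.65 to 7.27 CPM) overlapped those of all 3 infarcted sections (6.83 to 10.96, 6.93 to 10.8 and 4.26 to 7.65 CPM). Slc7a11 had 0 UMIs in the control, which allows up to 0.802 CPM (3 counts, the 1-sided limit for a count of 0), and 2.39, 3.88 and 1.56 CPM after infarction, on 20, 37 and 13 UMIs. These levels were 2.98-fold, 4.84-fold and 1.95-fold that limit, the counting error of the infarcted sections left aside. The interval of the section labelled male (0.832 to 2.67 CPM) overlapped the 2-sided interval of the control (up to 0.986 CPM), and those of the other infarcted sections did not.

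Nqo1 went the other way. It was at 44.9 CPM in the control (interval 38.4 to 52.2) and at 36.4, 22.8 and 29.3 CPM after infarction, between 0.509 and 0.811 of the control. The interval of the 3 dpi section (32.4 to 40.7 CPM) overlapped that of the control, and those of both 5 dpi sections (19.9 to 26.1 and 25.8 to 33.3 CPM) lay below it. The metallothioneins differed from each other. Mt1 was at 621, 809, 696 and 910 CPM, 1.12-fold to 1.46-fold above the control, whereas Mt2 was at 21.9, 125, 114 and 101 CPM, 4.60-fold to 5.72-fold above it. Gclm, Txnrd1, Srxn1 and Mt2, 4 of the 7 members that reached 10 CPM, were at least 2-fold higher in 3 of 3 infarcted sections, and none was 2-fold lower, against 24.6% and 5.19% of the 9304 genes that reached 10 CPM. The median gene was itself higher than in the control, by 0.52, 0.58 and 0.42 on the log2 scale of CPM ratios, alongside the fall in cardiomyocyte transcripts from 101295 CPM to between 19812 and 45259 CPM. Other markers rose between the control and the 3 dpi section: macrophage markers from 891 to 5077 CPM, fibroblast markers from 2771 to 8992 CPM and border cardiomyocyte markers from 2264 to 19108 CPM. The part of these shifts in the members' values was not tested.

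The infarcted sections were then divided into zones named as in the study but drawn here by other limits, from cardiomyocyte RNA and distance. These were the infarct zone (IZ), the border zone next to it (BZ2), the remote zone (RZ) and the border zone next to the remote zone (BZ1). A spot was low when 12 cardiomyocyte markers made up less than 0.5 times the 90th percentile of their share in its section, and connected patches of at least 10 low spots formed the IZ. BZ2 lay 1 to 2 spot steps outside, BZ1 3 to 4 steps and RZ beyond. The IZ held 882, 1061 and 684 spots and the RZ 380, 200 and 533. From here on, values are in the order 3 dpi, 5 dpi labelled female, 5 dpi labelled male.

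**Figure D1:**
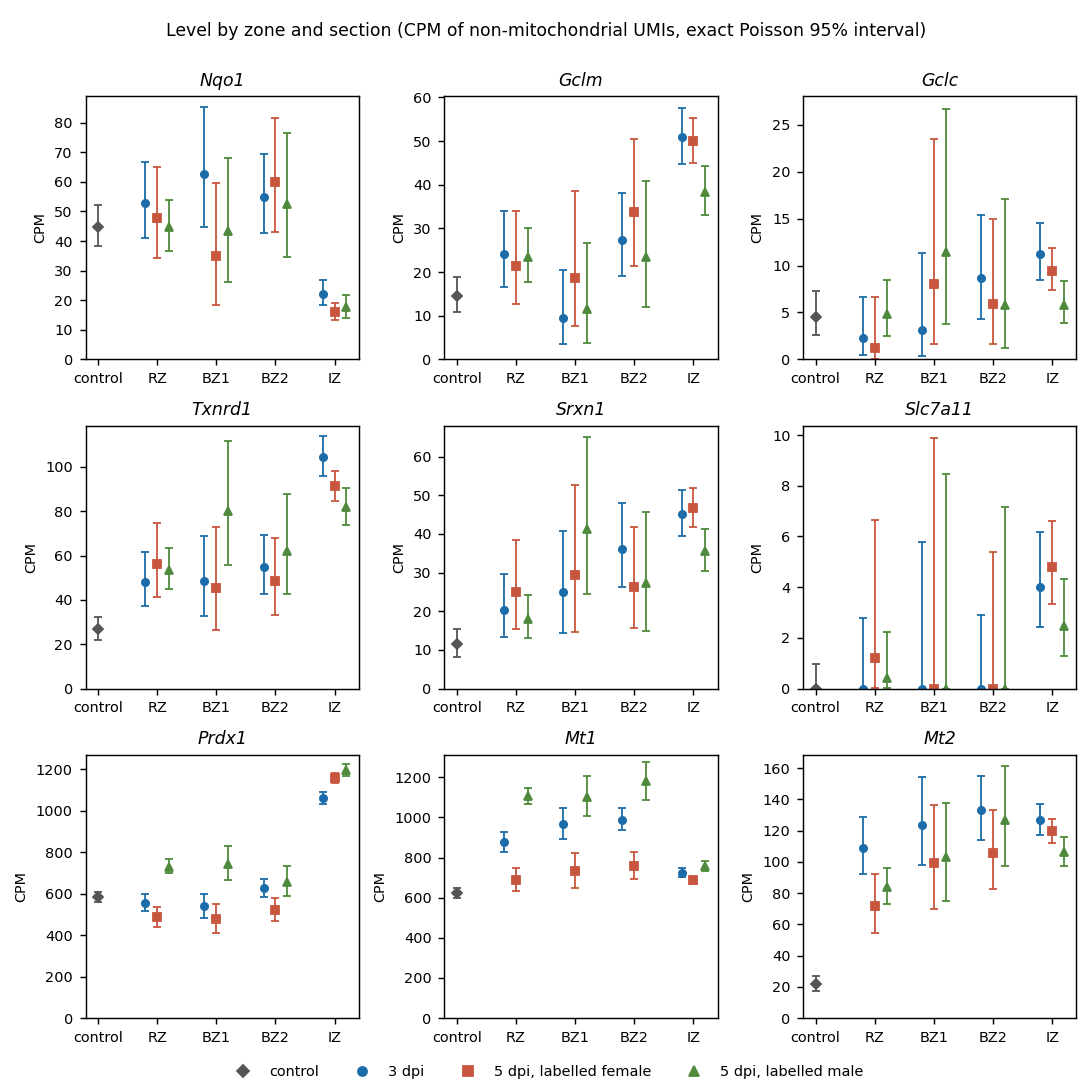
CPM of each of the 9 genes (y axis) in the control section and in the 4 zones of the 3 infarcted sections (x axis), 1 point per section with its exact Poisson 95% interval. Nqo1 lies between 34.8 and 62.6 CPM outside the infarct and at 22.2 CPM or lower in the IZ, Prdx1 is highest in the IZ, and Mt2 is above the control in every zone.

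The clearest pattern was that of Nqo1, the quinone reductase. Its level was 52.7, 47.8 and 44.7 CPM in the RZ and 22.2, 16.1 and 17.6 CPM in the IZ, and the ranges did not overlap. In BZ1 it was at 62.6, 34.8 and 43.5 CPM and in BZ2 at 54.9, 60.1 and 52.5 CPM, so the ranges of RZ, BZ1 and BZ2 overlapped, and those of RZ and BZ1 also held the control's 44.9 CPM, which BZ2 lay above. CPM in the IZ was 2.37-fold to 2.97-fold lower than in the RZ. Zone sums were compared with the Benjamini-Hochberg adjusted quasi-likelihood test of edgeR over 9811 genes and the section as a block, which gave a log2 fold change of -1.76 (SE 0.17, adjusted p = 1.47e-08) for IZ against RZ and -1.79 (SE 0.18, adjusted p = 1.20e-07) for IZ against BZ2.

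Prdx1, Txnrd1 and Srxn1 were higher in the infarct. Prdx1 was at 557, 486 and 731 CPM in the RZ and at 1059.9, 1159 and 1197 CPM in the IZ, 1.64-fold to 2.39-fold higher. Its border zones, at 476 to 744 CPM, stayed within or close to the range of the RZ. By the Benjamini-Hochberg adjusted quasi-likelihood test of edgeR Prdx1 rose by log2 0.58 from RZ to IZ (SE 0.13, adjusted p = 0.000893) and by 0.70 from BZ2 to IZ (SE 0.14, adjusted p = 0.000310), the latter narrowly lost without the 5 dpi section labelled female (0.52, adjusted p = 0.0504). Txnrd1 had 48.2, 56.1 and 53.6 CPM in the RZ and 104.6, 91.3 and 81.8 CPM in the IZ, without overlap. Its log2 fold change was 0.44 (SE 0.17, adjusted p = 0.0313, edgeR's quasi-likelihood test), and 0.54 against BZ2 (adjusted p = 0.0279). Each of these calls of Txnrd1 was lost in 5 of 11 alternative settings, among them without the 3 dpi section and without the 5 dpi section labelled female. Srxn1 had 20.3, 25.1 and 18.1 CPM in the RZ and 45.1, 46.6 and 35.5 CPM in the IZ, again without overlap. It was at 25.1, 29.4 and 41.2 CPM in BZ1, on 16, 11 and 18 UMIs, and at 36.1, 26.4 and 27.2 CPM in BZ2. BZ1 thus lay above BZ2 in both 5 dpi sections and, in the section labelled male, above the IZ. It rose by log2 0.64 from RZ to IZ (SE 0.19, adjusted p = 0.00829, same test), but its difference between IZ and BZ2 was not called (0.24, adjusted p = 0.390).

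Of the glutathione genes, Gclm, the modifier subunit, was at 24.1, 21.5 and 23.4 CPM in the RZ and at 50.9, 49.96 and 38.4 CPM in the IZ. The groups did not overlap, and the log2 fold change was 0.57 (SE 0.18, adjusted p = 0.0103, the Benjamini-Hochberg adjusted quasi-likelihood test of edgeR). The catalytic subunit Gclc was sparse, with 3, 1 and 12 UMIs in the RZ and 56, 71 and 28 in the IZ, or 2.26, 1.19 and 4.83 against 11.2, 9.43 and 5.79 CPM. Its log2 fold change was 0.94 with an SE of 0.45, and it did not pass (adjusted p = 0.0824). Slc7a11, the cystine importer, was too sparse for the test: it had 0, 1 and 1 UMIs in the RZ, 0 in BZ1 and BZ2 of all 3 sections, and 20, 36 and 12 UMIs in the IZ. Nearly all its UMIs of the infarcted sections, which numbered 20, 37 and 13, were thus found in the IZ. The IZ also held most UMIs outside mitochondrially encoded genes: 4990848 of 8374573, 7525906 of 9540940 and 4838496 of 8314946.

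The metallothioneins behaved apart from the rest. Mt1 was at 875, 690.1 and 1107 CPM in the RZ, 966, 731 and 1104 CPM in BZ1, 989, 758 and 1179 CPM in BZ2 and 725, 686 and 759 CPM in the IZ, lower in the IZ than in the RZ in 3 of 3 sections though by only 1.01-fold in the section labelled female. The fit gave a log2 fold change of -0.65 (SE 0.13, adjusted p = 0.000228, edgeR's quasi-likelihood test) for IZ against RZ and -0.63 (adjusted p = 0.000678) for IZ against BZ2. Mt2 was at 109, 71.6 and 83.8 CPM in the RZ, 124, 99.0 and 103 CPM in BZ1, 133, 106 and 126 CPM in BZ2, and 127, 119 and 106 CPM in the IZ. No zone difference of Mt2 was called, with log2 0.03 for IZ against RZ (SE 0.14, adjusted p = 0.869, same test) and 0.29 for BZ2 against RZ (SE 0.16, adjusted p = 0.301). Mt2 was lowest in the RZ in 3 of 3 sections, while the order of the other zones differed between sections. With the zone limit at 0.65 its difference between BZ2 and RZ was called (0.61, adjusted p = 0.0328).

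In all, 4 of the 8 tested genes were higher in the IZ than in the RZ and 2 lower, against 28.2% and 25.8% of all 9811 genes tested. With 54% of all genes called in this comparison, the number of calls says little about the genes as a group, and the directions are what differs among them. Their median log2 fold change was 0.50 against 0.08 for all genes. Scaling matters for these values: TMM, which centres the bulk of genes, lowered log2 fold changes of IZ against RZ by a median of 0.39 compared with plain CPM. Without TMM, 6 of the 8 were higher and 1 lower, against 4731 higher and 1678 lower of all genes: Mt2 (0.42, adjusted p = 0.0119) and Gclc (1.34, adjusted p = 0.0123) passed and Mt1 did not (-0.27, adjusted p = 0.0537, edgeR's quasi-likelihood test). Without the 5 dpi section labelled female 2 of the 6 calls remained, Nqo1 (-1.74) and Mt1 (-0.85), while Gclm (0.44), Txnrd1 (0.43), Srxn1 (0.62) and Prdx1 (0.37) no longer passed. Over all genes 4264 were called without that section, in place of 5298.

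Between the border zones and the RZ none of the 8 genes was called. In BZ2, 8.61% of all genes were called (3.95% higher and 4.66% lower) and 0 of the 8 had an unadjusted p under 0.05. In BZ1, 0.0713% of all genes were called (0.0612% higher and 0.0102% lower) and 1 of the 8 had an unadjusted p under 0.05. That 1 was Gclm, at 9.40, 18.7 and 11.4 CPM in BZ1 on 6, 7 and 5 UMIs, with a log2 fold change of -1.04 (SE 0.32, adjusted p = 0.269, edgeR's quasi-likelihood test). For IZ against BZ2, 2 of the 8 were higher (Prdx1 and Txnrd1) and 2 lower (Nqo1 and Mt1), against 15.7% and 18.6% of all genes, 34.3% together. The change from RZ to IZ was also compared between 5 and 3 dpi, where the single 3 dpi section is assumed to vary like the others. None of the 8 genes was called (2.77% of 10330 genes were, 0.736% higher and 2.03% lower, and 0 of the 8 at an unadjusted p under 0.05). Sizes ran from -1.37 (SE 1.03) for Gclc and -0.43 (SE 0.32) for Txnrd1 to 0.31 (SE 0.28) for Mt2. On simulated counts this comparison recovered 17.6% of genes changed by a log2 fold of 1 and 75.7% of those changed by 2, so changes of that smaller size would mostly be missed.

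Cell type markers moved with the zones. From RZ to IZ the 8 macrophage markers, all called higher, went from 1477 to 1935 CPM in sum to 6999 to 11107 CPM. The 7 fibroblast markers, 4 of them higher and 1 lower, went from 3099 to 4501 CPM to 11392 to 21393 CPM. Of the 5 neutrophil markers 3 were tested and higher, and all 5 summed to 21.8 to 80.0 CPM in the RZ and 225 to 256 CPM in the IZ, with Cxcr2 at 0 in the RZ of every section and Retnlg also at 0 in that of the section labelled male. Endothelial (5 of 6), erythroid (5 of 5), border cardiomyocyte (5 of 8, with 1 higher) and mural (3 of 5, with 1 higher) markers were lower, and the mitochondrial share fell from between 27.5% and 41.3% to between 3.30% and 9.92% of UMIs. The part of these shifts in the members' differences was not tested.

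**Figure D2:**
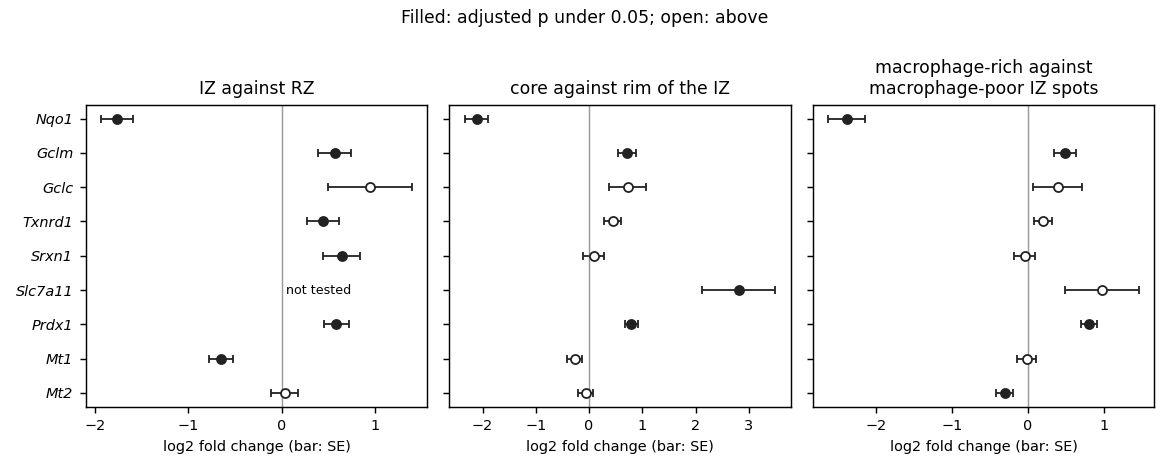
log2 fold changes with SE (x axis) of the 9 genes (y axis) in 3 comparisons over the 3 infarcted sections, from edgeR's quasi-likelihood test, filled where the adjusted p was under 0.05. Nqo1 is lower in all 3 comparisons (-1.76, -2.11 and -2.39), while Prdx1 and Gclm are higher in all 3.

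The infarct itself was not uniform. Spots more than 4 steps inside the border (core, 342, 813 and 533 spots) were compared with spots 1 to 2 steps inside (rim, 357, 160 and 93 spots). Prdx1 went from 807, 633 and 631 CPM in the rim to 1368, 1295 and 1307 CPM in the core, a log2 fold change of 0.80 (SE 0.13, adjusted p = 0.000287, the Benjamini-Hochberg adjusted quasi-likelihood test of edgeR over 10859 genes). Gclm went from 36.1, 30.8 and 28.5 CPM to 71.5, 56.7 and 41.6 CPM (0.71, SE 0.17, adjusted p = 0.00817), the ranges again apart, a call lost with DESeq2 and without the block. Slc7a11 had 2, 1 and 0 UMIs in the rim and 15, 35 and 12 in the core and had an adjusted p of 0.00807 (0.0957 with DESeq2), but it entered the test only through the core, where it is high, so nothing is read from its fold or its call. Nqo1 continued downward, from 34.1, 42.6 and 57.1 CPM to 12.0, 10.8 and 10.9 CPM (-2.11, SE 0.22, adjusted p = 5.87e-06). Txnrd1 (0.45, adjusted p = 0.0610), Srxn1 (0.09), Mt1 (-0.27) and Mt2 (-0.06) were not called. Txnrd1 passed in 4 of 11 alternative settings, without TMM, without the filter on low counts, with the zone limit at 0.35 and without the 3 dpi section (adjusted p = 0.00544 to 0.0297). Leaving Slc7a11 aside, 2 of the 8 other members were higher and 1 lower, beside 7.06% and 11.5% of all genes tested, 18.6% together. Between rim and core, cardiomyocyte markers fell from between 23504 and 31285 CPM to between 3386 and 12462 CPM, all 8 border cardiomyocyte markers were lower, 4 of 8 macrophage markers were higher and none lower, and 3 of the 4 tested neutrophil markers were higher. The 5 neutrophil markers summed to 75.2 to 104 CPM in the rim and 258 to 469 CPM in the core, and the part of these in the members' values was not tested.

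The IZ spots of each section were also ranked by their share of macrophage marker UMIs and split in 3 equal groups, of which the top and the bottom were compared. Prdx1 was at 736, 847 and 860.5 CPM in macrophage-poor and 1444, 1391 and 1617 CPM in macrophage-rich spots, higher in 3 of 3 sections by log2 0.80 (SE 0.11, adjusted p = 6.64e-06, the Benjamini-Hochberg adjusted quasi-likelihood test of edgeR over 10580 genes). Gclm was higher as well (0.49, SE 0.14, adjusted p = 0.0129), though not called without the 3 dpi section (0.36), without the 5 dpi section labelled female (0.52), with DESeq2 or without the block. Nqo1 fell from 34.2, 28.4 and 36.9 CPM to 10.6, 5.33 and 3.72 CPM (-2.39, SE 0.24, adjusted p = 2.19e-07). Mt2 was lower by less, from 139, 122 and 118 CPM to 116, 114 and 90.4 CPM (-0.31, SE 0.11, adjusted p = 0.0481), a call that was lost in 10 of 11 alternative settings with the direction kept. These 2 higher and 2 lower of 9 stand beside 13% and 14.3% of all genes, 27.4% together. Cardiomyocyte markers were at 14461 to 31737 CPM in macrophage-poor and 1682 to 9170 CPM in macrophage-rich spots. All 8 border cardiomyocyte and all 5 erythroid markers were lower and the 3 tested neutrophil markers higher in macrophage-rich spots, the 5 neutrophil markers summing to 113 to 167 CPM in the poor and 286 to 351 CPM in the rich ones. The summed level of the erythroid markers went from 41087 and 16350 CPM to 11673 and 6881 CPM at 5 dpi, but from 2555 to 3869 CPM at 3 dpi. The part of these shifts was not tested. The same split by fibroblast markers called only Nqo1, at 19.4, 23.6 and 22.7 CPM in fibroblast-poor and 16.1, 9.05 and 16.3 CPM in fibroblast-rich spots (-0.79, SE 0.23, adjusted p = 0.0423, same test over 10633 genes, of which 9.04% were called, 4.97% lower and 4.07% higher). Gclm (-0.45, adjusted p = 0.0657) and Prdx1 (-0.23, adjusted p = 0.0804) leaned the same way without passing. That call of Nqo1 was lost without the 5 dpi section labelled female (-0.41), with DESeq2, without TMM, without the block and with the zone limit at 0.35, the direction staying the same. In fibroblast-rich spots all 12 cardiomyocyte, all 8 border cardiomyocyte and all 5 erythroid markers were lower too, cardiomyocyte markers summing to 23499, 10602 and 13703 CPM in fibroblast-poor and 15415, 3502 and 4469 CPM in fibroblast-rich spots, and the part of this was not tested.

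To follow the genes along the loss of muscle RNA without zones, spots were placed in 5 bins by their cardiomyocyte marker share relative to the 90th percentile of the section. Nqo1 went from 55.1, 49.0 and 46.4 CPM in spots at 0.75 and over to 7.75, 8.38 and 5.15 CPM in spots under 0.1, a difference of 5.85-fold to 9.01-fold. At 0.25 to 0.5 it was still at 45.4, 53.4 and 52.1 CPM, so the difference lay in spots under 0.25. Prdx1 took the opposite course, from 558, 473 and 729.7 CPM to 1489, 1325 and 1404 CPM. Gclm (21.6, 22.8 and 20.1 to 74.2, 56.1 and 38.7 CPM) and Txnrd1 (48.9, 52.5 and 51.6 to 127, 103 and 87.2 CPM) were also higher in the lowest than in the highest bin in every section, though not in steady steps: in the section labelled male Gclm was at 45.2 CPM in the bin from 0.1 to 0.25. Mt2 was lowest in the spots richest in cardiomyocyte RNA (107, 69.2 and 87.1 CPM) and at 104 to 139 CPM in the other bins, and Mt1 was at 728, 712 and 726 CPM in the lowest bin and 886, 708 and 1158 CPM in the highest. Of the members that reached 10 CPM in a bin, Nqo1 alone differed at least 2-fold between the lowest and highest bin in 3 of 3 sections, and it was lower, against 18.7% of 9902 genes higher and 9.85% lower. Slc7a11 was past 2-fold as well, but it stayed under 10 CPM, had 0, 1 and 1 UMIs in the highest bin, and its intervals in both bins overlapped in the 5 dpi sections. With all UMIs as the denominator, mitochondrial ones included, 6 genes passed 2-fold, 5 higher (Slc7a11 among them) and 1 lower.

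**Figure D3:**
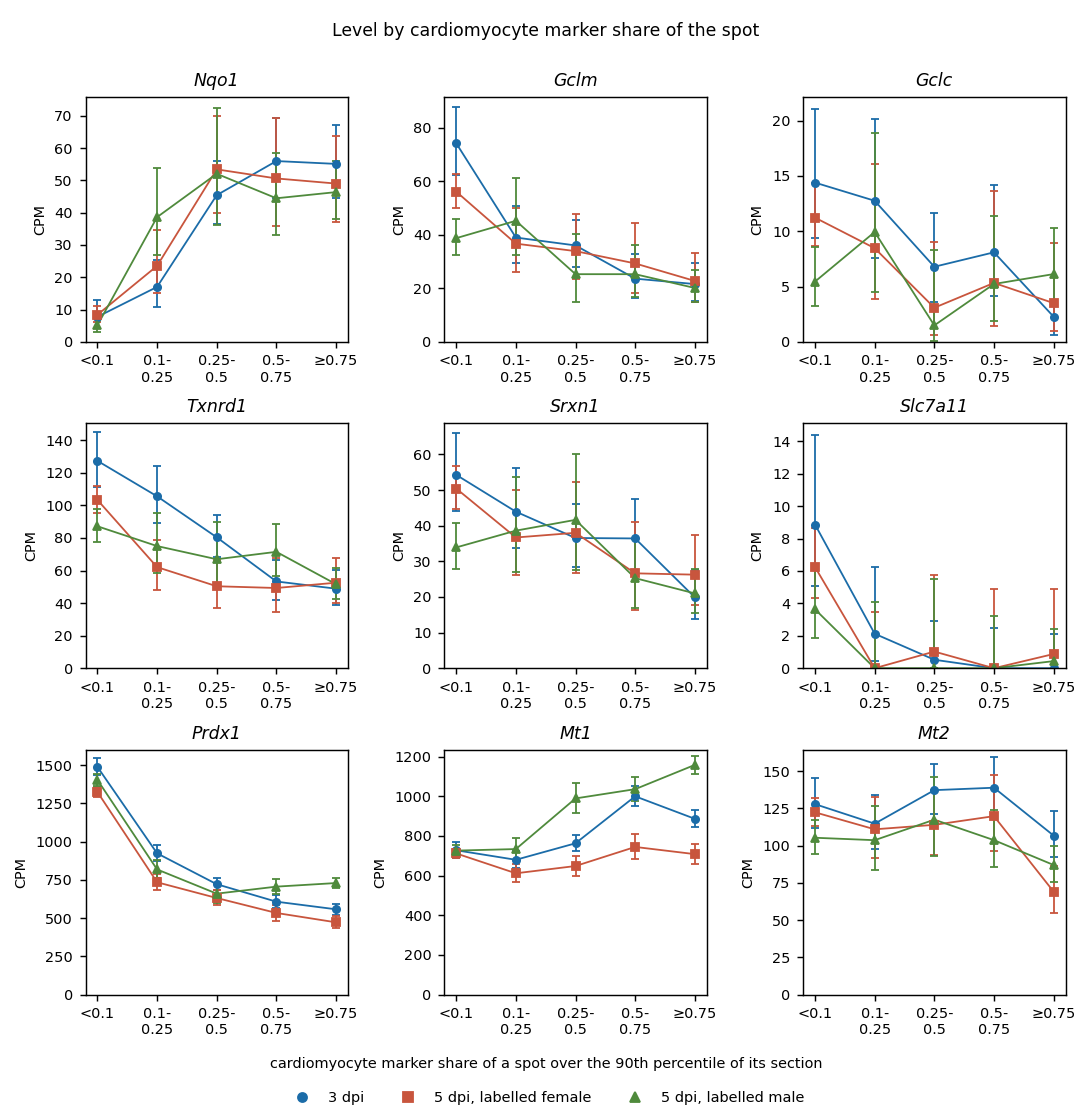
CPM of each gene (y axis) in spots grouped by cardiomyocyte marker share relative to the 90th percentile of the section (x axis, loss of muscle RNA to the left), 1 line per infarcted section, with exact Poisson 95% intervals. Nqo1 falls to the left to between 5.15 and 8.38 CPM and Prdx1 climbs to between 1325 and 1489 CPM, while Mt2 stays between 69.2 and 139 CPM.

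The remote zone was compared with the control heart to see which genes differed away from the infarct. Mt2 alone was at least 2-fold higher in 3 of 3 sections (1 of the 7 members that reached 10 CPM, against 4.36% of 8581 genes), at 109, 71.6 and 83.8 CPM beside 21.9 CPM in the control (interval 17.4 to 27.2), 3.27-fold to 4.98-fold. Txnrd1 was at 1.80 to 2.10 times, Srxn1 at 1.58 to 2.18 times and Gclm at 1.49 to 1.67 times the control. Nqo1 (0.996-fold to 1.17-fold) and Prdx1 (0.835-fold to 1.26-fold) lay on both sides of it. None was 2-fold lower in 3 of 3 sections (0.245% of genes were). Cell type markers differed as well. The 8 macrophage markers summed to 891 CPM in the control and 1477 to 1935 CPM in the RZ, and the 7 fibroblast markers to 2771 CPM and 3099 to 4501 CPM. The part of this in the members' values was not tested. With 1 control heart, the spread between uninjured hearts is unknown and none of the differences between RZ and control was tested.

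The balance between the metallothionein genes also differed between the control and the infarcted sections. Mt2 made up 3.41% of Mt1 and Mt2 UMIs in the control (exact binomial interval 2.72% to 4.21%) and 13.4%, 14.0% and 9.99% in the infarcted sections. It was 11.1%, 9.40% and 7.04% in the RZ and 14.9%, 14.8% and 12.3% in the IZ, higher in the IZ in 3 of 3 sections and above the control in every zone. No 91-base stretch of annotated transcript (GENCODE M21) was shared by Mt1 and Mt2, so reads of that length would not be split between them. Such stretches were shared with other genes by 2.58% of windows of Gclm and 1.52% of Prdx1, and by 0% of the other members.

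**Figure D4:**
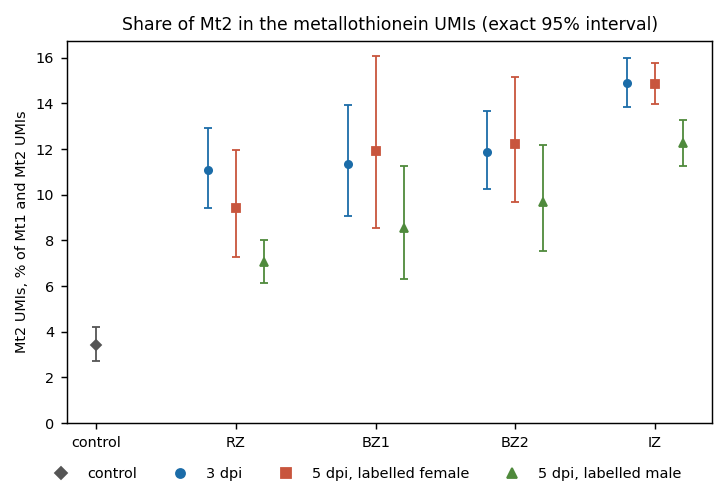
Mt2 UMIs as a percent of Mt1 and Mt2 UMIs together (y axis) in the control and in the zones of the 3 infarcted sections (x axis), with exact binomial 95% intervals. The control is at 3.41% and the zones lie between 7.04% in the RZ of the section labelled male and 14.9% in the IZ at 3 dpi.

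The wider pathways were read from 4 further lists for IZ against RZ. Of 23 other NRF2 pathway genes, all tested, 11 were higher and 3 lower (28.2% and 25.8% of all genes), with a median log2 fold change of 0.33. Without TMM 16 were higher and 3 lower, beside 4731 and 1678 of all 9811 genes. Nfe2l2 itself was at 55.7, 44.2 and 52.0 CPM in the RZ and 91.4, 70.7 and 75.02 CPM in the IZ and was not called (0.23, adjusted p = 0.172, the Benjamini-Hochberg adjusted quasi-likelihood test of edgeR), nor was Keap1 (-0.10, adjusted p = 0.608). The furthest up were Hmox1, the heme oxygenase, at 21.8, 33.4 and 18.5 CPM in the RZ and 615, 554 and 394 CPM in the IZ (log2 4.05, adjusted p = 8.81e-13), and Ftl1, the ferritin light chain (2.64, adjusted p = 2.25e-12). The lowest were the glutathione transferases Gsta4 (-2.39, adjusted p = 4.40e-11) and Gstm1 (-1.60, adjusted p = 2.39e-08), which fell as Nqo1 did. NRF2 targets thus went in both directions within the same zone.

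The counts of the remaining lists stand beside 28.2% of all 9811 genes higher and 25.8% lower, and 4731 higher and 1678 lower without TMM. Of 11 cytosolic or secreted enzymes, 4 were higher and 5 lower, or 5 and 4 without TMM. Gpx1, the glutathione peroxidase (log2 1.32, adjusted p = 3.66e-09, edgeR's quasi-likelihood test), and Sod3, the secreted superoxide dismutase (1.31, adjusted p = 0.000141), were highest, and Prdx2 (-0.95, adjusted p = 8.08e-07) and Sod1 (-0.95, adjusted p = 1.09e-06) lowest. Of 10 mitochondrial enzymes, 9 were tested, and all 9 were lower, with a median of -1.17. The furthest down were Idh2, which supplies mitochondrial NADPH (-3.08, adjusted p = 8.81e-13), and Sod2, the mitochondrial superoxide dismutase, at 694, 583 and 707 CPM in the RZ and 186, 107 and 131 CPM in the IZ (-2.64, adjusted p = 4.28e-12). Without TMM 8 of these 9 were called lower, Glrx2 being the exception. Of 10 metal handling genes 8 were tested. The copper chaperone Atox1 (0.48, adjusted p = 0.00237) and the zinc importer Slc39a1 (0.47, adjusted p = 0.0121) were higher, and ceruloplasmin, Cp, lower (-0.65, adjusted p = 0.0136), whereas without TMM 3 were higher and 0 lower. Calls among the metal handling genes were no more frequent than over all genes. Mtf1, the metal sensor, was at log2 0.02 (adjusted p = 0.956).

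**Figure D5:**
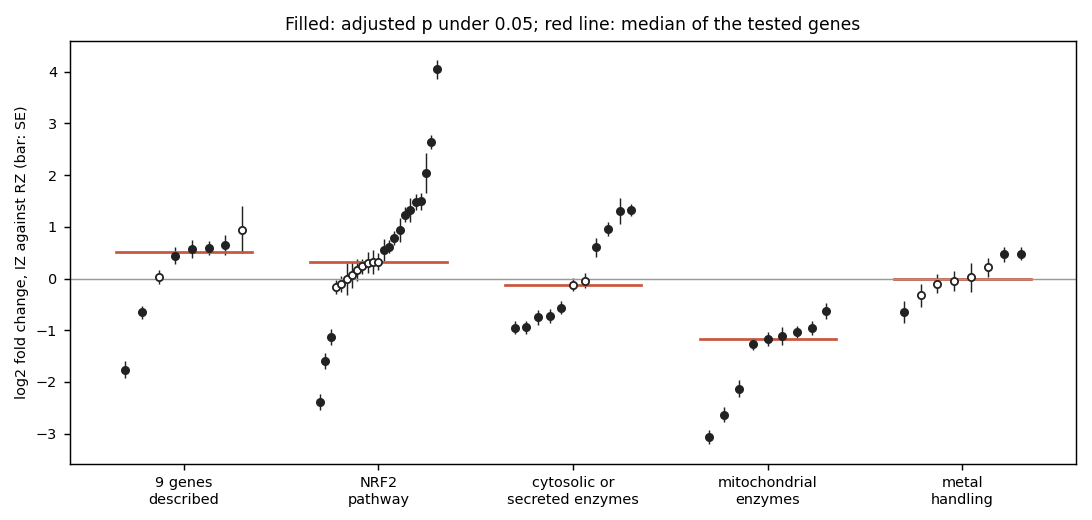
log2 fold change with SE of IZ against RZ (y axis) for each tested gene of the 9 described and of the 4 wider lists (x axis), filled where the adjusted p was under 0.05, with the median of each list as a red line. All 9 mitochondrial enzymes lie below 0, and the NRF2 pathway runs from -2.39 (Gsta4) to 4.05 (Hmox1).

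Likeness of pattern was described by Pearson's r of log2(CPM + 1) over 13 sums, the 12 zone sums and the control, which share libraries within a section and carry no p. Among genes with at least 50 CPM in 1 sum, those most like Nqo1 were Dsp (0.97), a desmosomal gene of cardiomyocytes, and Pgm1 (0.96). Prdx1 was most like H3f3a (0.97) and Selenos (0.96), Txnrd1 most like Nhp2 (0.94) and Birc5 (0.93), and Srxn1 most like Ssrp1 (0.94) and Bak1 (0.94). For Mt2 they were Tnc (0.94), a matrix glycoprotein of injured tissue, and Sprr1a (0.90), and for Mt1 Mettl9 (0.88) and Hint1 (0.81). Gclm was closest to Hnrnph2 (0.93) and Emc8 (0.91), Gclc to Trappc1 (0.90) and Cwc15 (0.89), and Slc7a11 to Arf1 (0.94) and Galnt2 (0.91). Among the 9 genes themselves, Srxn1 and Txnrd1 ran most alike (0.89), Nqo1 ran against Slc7a11 (-0.88) and Prdx1 (-0.85), and Mt1 and Mt2 were only loosely alike (0.46). Slc7a11 had at most 1 UMI in any sum outside the IZ, so its r values reflect little besides the IZ against the rest.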

How the data were processed

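Visium libraries of 4 heart sections had been mapped by the authors with Space Ranger (1.3.1 in the matrix headers). The labels name build mm10 and the methods an Ensembl 105 based reference with GFP added, so no gene coordinates are given beyond the RefSeq windows. The deposited values are UMI counts, 1 for each gene in each spot and not normalized, and spots under tissue had been marked by hand by the authors. In the section labelled male 623 unmarked spots were not used. The spot filter of the study was applied (500 UMIs, 250 genes, at most 50% mitochondrial UMIs). The 13 mitochondrially encoded genes were left out of CPM and of tests. For each section UMIs were added up by zone, and the 12 zone sums (6 sums in comparisons inside the infarct) were fitted with edgeR 4.0.16 (limma 3.58.1, R 4.3.3), with TMM, filterByExpr at its defaults and a block for section, adjusted by Benjamini-Hochberg at 0.05. Hearts are the replicates. Zones were rebuilt here with limits of this re-analysis and need not match those of the study. Sections with 1 heart per group were compared without a test, counting genes of at least 10 CPM in 1 of them at 2-fold or more in 3 of 3 infarcted sections. Alternatives were DESeq2 1.42.0, no TMM, no filter, other zone limits, no spot filter, no block and leaving out sections. On simulated data the IZ against RZ fit recovered 74.4% of genes changed by log2 1 and 100% of those changed by 2, with 2.84% false calls. There 90 and 104 of 9332 genes were changed by those sizes, in both directions, whereas 54% of genes were called in the data. The shift between scalings was thus not simulated, and these rates need not hold for the real fit. The 9 genes, the lists and the tests were chosen with earlier results of these data known. All 9 genes are named, with the 2 genes most like each and, of each wider list, the 2 highest and 2 lowest called genes besides Nfe2l2, Keap1 and Hmox1. Figures were drawn with Python 3.11.15.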

Additional observations from a re-analysis of the deposited data

Results flagged for a closer look

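In 3 cases the 3 dpi section moved one way and both 5 dpi sections the other, and none of these differences between times was tested. The log2 CPM ratio of BZ1 over RZ for Nqo1 was 0.25 at 3 dpi and -0.46 (labelled female) and -0.040 (labelled male) at 5 dpi. For Srxn1 in macrophage-rich over macrophage-poor IZ spots it was 0.29 at 3 dpi and -0.10 and -0.12 at 5 dpi. For Mt2 in fibroblast-rich over fibroblast-poor IZ spots it was -0.23 at 3 dpi and 0.19 and 0.32 at 5 dpi.

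The 623 spots of the section labelled male that are not marked as tissue entered no comparison. The levels of 7 genes in them were above those of the control section with intervals that did not overlap: Gclm at 36.8 CPM, Txnrd1 at 83.0, Srxn1 at 31.4, Slc7a11 at 2.69, Prdx1 at 1097, Mt1 at 1048 and Mt2 at 193 CPM. Nqo1 went the other way, at 19.3 CPM (interval 14.0 to 26.0) against 44.9 CPM in the control, again without overlap. Gclc was at 9.87 CPM, with an interval that overlapped that of the control. Mt2 was there 193 CPM (interval 176 to 213) and at most 133 CPM in any of the 4 zones of the infarcted sections. In the marked spots of the same section Gclm was at 31.4 CPM, Txnrd1 at 72.3, Srxn1 at 30.3, Slc7a11 at 1.56, Prdx1 at 998.6, Mt1 at 910, Mt2 at 101 and Nqo1 at 29.3 CPM. The median gene of those marked spots was itself above the control, by log2 0.42. The share of all genes with intervals apart from the control was not counted, so the count of 7 cannot be weighed.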

How the results depend on the processing

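Of 670 log2 fold changes of the 9 genes under alternative settings, 570 kept their direction and side of the threshold, 44 changed sign without being called in either fit, 40 were no longer called, 15 became called and 1 turned and was called: Mt2 in the core against the rim was 0.57 (adjusted p = 0.00379, edgeR's quasi-likelihood test) with the zone limit at 0.35. Nqo1 stayed called in IZ against RZ, IZ against BZ2, core against rim and macrophage-rich against macrophage-poor spots under each of 11 alternatives. Members called for IZ against RZ numbered 6, and 2 to 6 when 1 section was left out (2 without the 5 dpi section labelled female). For IZ against BZ2 the range was 2 to 4, again lowest without that section. For BZ2 against RZ, 1 gene, Mt2, was called with the zone limit at 0.65 (0.61, adjusted p = 0.0328) in place of 0. Core against rim called 2 in place of 4 with DESeq2 and without the block, 5 without TMM and without the filter, and 6 with the limit at 0.35, Txnrd1 among them in these 3 settings. The count of 4 includes Slc7a11, whose call is not read, since it entered that test only through the core. Macrophage-rich against macrophage-poor spots called 2 in place of 4 with DESeq2 and without the block, and 2 to 3 when 1 section was left out. Fibroblast-rich against fibroblast-poor spots called 0 with DESeq2, without TMM and without the block, 3 without the filter, 2 with the limit at 0.65, and 0 to 2 when 1 section was left out. The bins gave 6 in place of 2 with all UMIs, the sparse Slc7a11 counted in both. Srxn1 lost its call for IZ against RZ with the limit at 0.35, Gclm and Txnrd1 with DESeq2, Prdx1 without the block, and Txnrd1 also with the limit at 0.65, without the block and without the 3 dpi section. The cause was not tested.

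Over all genes, calls for BZ2 against RZ were 845, and 1433, 441 and 56 with the limits 0.35 and 0.65 and without the block, and 156 to 696 with 1 section left out. For BZ1 against RZ they were 7, and 97 with DESeq2, 14 without TMM, 113 without the filter, 77 at the limit 0.35, 0 at 0.65 and without the block, and 0 to 68 with a section left out. IZ against BZ2 gave 3363, and 2127 without the female-labelled section. The comparison of times gave 286, and 141 with DESeq2. Core against rim gave 2015, and 1062 with DESeq2, 1042 without the block, and 1153 to 2499 with a section left out. Macrophage-rich against macrophage-poor spots gave 2896, and 1361 and 1417 with DESeq2 and without the block. Fibroblast-rich against fibroblast-poor spots gave 961, and 308, 580 and 0 with DESeq2, the limit 0.35 and without the block, and 486 without the female-labelled section. Without TMM, higher calls made up 73.8% in place of 52.1% for IZ against RZ, 71.8% in place of 45.9% for BZ2 against RZ, 66.7% in place of 45.9% for IZ against BZ2 and 59.1% in place of 38.1% for core against rim. DESeq2 gave 37.1% in place of 85.7% for BZ1 against RZ and 27.5% for core against rim. Leaving out a 5 dpi section of the comparison of times was not run for want of residual degrees of freedom. Depth limits Slc7a11 and Gclc, with at most 12 UMIs in any remote or border zone. Zones of 1 heart are paired through the block for section, whereas replicate numbers of different hearts pair no samples.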
